A study of Mus musculus with 8 samples.

Results

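The genes described here are 37 genes of the autophagy machinery, out of 55359 genes listed in the deposited tables. They were taken by gene symbol from a list that covers the initiation complex, membrane nucleation, ubiquitin-like conjugation and cargo receptors, and each symbol was found. RNA sequencing was done on 8 samples of thymocytes from mice aged 5 weeks, sorted for the double positive (CD4 and CD8) stage with absent to intermediate TCR beta. The 4 Lck-cre samples (replicates 5 to 8) had the genotype LSL-Sting1-N153S;Lck-cre, whose number of LSL alleles the label leaves out. The 4 control samples (replicates 1 to 4) had the genotype LSL-Sting1-N153S/+, without Cre. The LSL allele, carried by both groups, holds a stop cassette that Cre removes, after which STING is made with N153S, a gain-of-function substitution. The Lck promoter drives Cre in T cell progenitors. No group had Cre without this allele, so effects of Cre and of mutant STING cannot be told apart. Replicates 5 and 1 were the females of their groups, and the other 3 samples of each group were males. The labels do not say whether each sample was its own animal, and p-values then cover only the spread among samples, which may be technical.

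Macroautophagy is the pathway by which a cell wraps cytoplasm in a double membrane and delivers it to lysosomes. The ULK kinase complex starts it, a lipid kinase complex around Beclin 1 marks the membrane, and lipid transfer proteins extend it. A pair of ubiquitin-like systems then couples proteins of the Atg8 family (LC3 and GABARAP) to the membrane, where receptors bring ubiquitinated cargo. In T cells autophagy is known for removing mitochondria and endoplasmic reticulum during maturation, and activated STING is known to trigger LC3 lipidation.

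Values are the authors' FPKM, a measure scaled by gene length and by the library's total. The quantifier, and so the length used, is unknown. The commonest ratio of deposited coverage to FPKM held for 21.3% to 22.2% of genes at 1 FPKM or above in each sample. Levels of different genes are therefore compared only roughly. The tables hold no counts and the depth is unknown. Sting1 lay at 221, 85.4, 129.6 and 232 FPKM in Lck-cre, against 15.3, 11.6, 13.4 and 11.9 FPKM in controls, in order of replicate. The groups were apart, and Lck-cre replicate 6 was the lowest of its group. On the first principal component of all tested genes that sample also lay nearest the controls, at 3.53, with the other Lck-cre samples at 17.9 to 31.1 and the controls at -23.4 to -12.8. The 9 genes taken as markers of the double positive stage were all present, with summed levels of 4186 to 5415 FPKM in Lck-cre and 5403 to 5779 FPKM in controls. Of these Cd4, Rag1 and Rag2 fell (log2 changes of -0.47, -0.59 and -0.51, adjusted p of 0.0356, 0.0141 and 0.0157 by limma) and Ptcra rose (0.49, 0.0107). Groups were apart for 4 markers as lower and 1 as higher, beside 12.3% and 17.1% of all tested genes. Of 6 myeloid or dendritic markers 5 stayed under 1 FPKM in every sample, and the 6 summed to 3.50 to 4.76 FPKM in Lck-cre and 2.74 to 3.43 FPKM in controls. Itgam made up most of this sum and overlapped between groups, while the other 5 summed to 0.660 to 2.32 FPKM in Lck-cre and 0.225 to 0.298 FPKM in controls. Among these Siglech averaged 0.593 ± 0.352 FPKM in Lck-cre and 0.0552 ± 0.0247 FPKM in controls, Lyz2 0.560 ± 0.282 FPKM in Lck-cre and 0.163 ± 0.0214 FPKM in controls and Csf1r 0.0360 ± 0.0190 FPKM in Lck-cre and 0.00427 ± 0.00552 FPKM in controls (SD, n = 4 each), each with every Lck-cre sample above every control. Of the 5 epithelial markers Krt8 alone was apart, at 0.200 ± 0.0437 FPKM in Lck-cre and 0.0642 ± 0.0316 FPKM in controls. The 5 summed to 3.84 to 5.13 FPKM in Lck-cre and 3.45 to 5.55 FPKM in controls. Most of this was Epcam, at 4.20 ± 0.486 FPKM in Lck-cre and 4.30 ± 0.942 FPKM in controls. All 5 erythroid markers stayed under 1 FPKM. Of 4 mature T cell markers Klf2 alone was called, as higher (log2 change 0.92, adjusted p = 0.0300 by limma). The 4 summed to 60.2 to 72.2 FPKM in Lck-cre and 71.2 to 75.3 FPKM in controls. The 4 double negative markers summed to 5.05 to 8.27 FPKM in Lck-cre and 4.24 to 7.42 FPKM in controls. Neither Il2ra (0.65, adjusted p = 0.0734 by limma) nor Cd44 (-0.29, 0.105) was called. B cell and stroma or endothelium sums overlapped between groups. Of 15 cell cycle genes 14 rose in Lck-cre, beside 15.4% of all tested genes, with a median log2 change of 0.59. The part of these shifts in the results below was not tested, and in bulk RNA fewer cells of a type and less RNA per cell cannot be told apart.

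Most of the machinery was transcribed in these thymocytes. The cargo receptor Tax1bp1 had the highest mean FPKM of the 37 genes, at 84.2 ± 4.74 FPKM in Lck-cre and 78.7 ± 1.90 FPKM in controls (SD, n = 4 each). By FPKM it was followed by Map1lc3b, Sqstm1, Becn1 and Gabarap. The order differed by deposited coverage, where Tax1bp1, at 110 to 134, lay below Sqstm1, at 267 to 396, and Map1lc3b, at 228 to 311. Paralogs of a step differed in level. Over all 8 samples Ulk1 averaged 41.7 FPKM and Ulk2 10.7 FPKM, Wipi2 30.5 FPKM and Wipi1 0.0772 FPKM, and the proteases Atg4b 20.2 FPKM and Atg4c 0.311 FPKM. Wipi1, Atg4c and the receptor Optn missed the minimum for testing, which asked for 4 samples or more with an FPKM of 1 or above. Over all samples Wipi1 spanned 0.0269 to 0.172 FPKM, Atg4c 0.219 to 0.459 FPKM and Optn 0.109 to 0.369 FPKM. The groups overlapped for each of these, while they were apart for 2.99% as higher and 3.49% as lower of the 16514 genes under the minimum and above 0 in a sample. The other 34 members were tested.

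**Figure D1:**
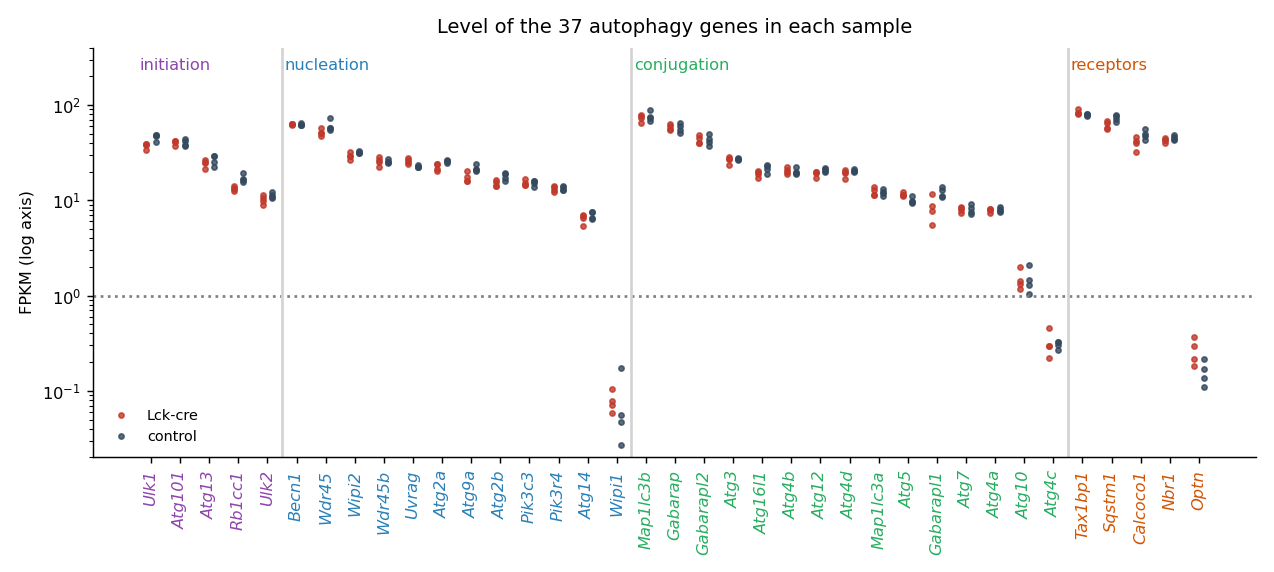
FPKM on a log axis of each of the 37 autophagy genes in every sample, with Lck-cre left of control for each gene and genes grouped by step. The dotted line marks 1 FPKM, and Wipi1, Atg4c and Optn lie below it in all samples.

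The comparison asked whether transcripts of this machinery differed between Lck-cre and control thymocytes. Of the 34 tested members, 3 fell and 1 rose in Lck-cre by limma at a Benjamini-Hochberg adjusted p under 0.05 over all 12337 tested genes. The 3 that fell were Rb1cc1 and Ulk1 of the initiation complex and the membrane scramblase Atg9a, and the 1 that rose was Uvrag, a partner of Beclin 1. The called share of members was 11.8%, and 25.8% of all tested genes were called, 15.4% as higher and 10.4% as lower. The median log2 change was -0.07 over the members and 0.01 over all tested genes. The 95% interval lay within a 1.5-fold change in either direction for 33 of 34 members and for 75.4% of all tested genes. The members were also more abundant, with a median level of 22.2 FPKM beside 12.4 FPKM for all tested genes. With TPM in place of FPKM, 10 members fell and 0 rose by limma, a called share of 29.4%, and 27.3% of all tested genes were called, 10.5% as higher and 16.8% as lower. The median log2 change with TPM was -0.14 over the members and -0.06 over all tested genes. The members' share was thus below that of all genes with FPKM and not with TPM. With quantile normalization it was 17.6% beside 26.2% of all tested genes, and with median-of-ratios scaling 11.8% beside 25.6%. At an unadjusted p under 0.05 stood 11 of the 34 members and 41.4% of all tested genes.

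**Figure D2:**
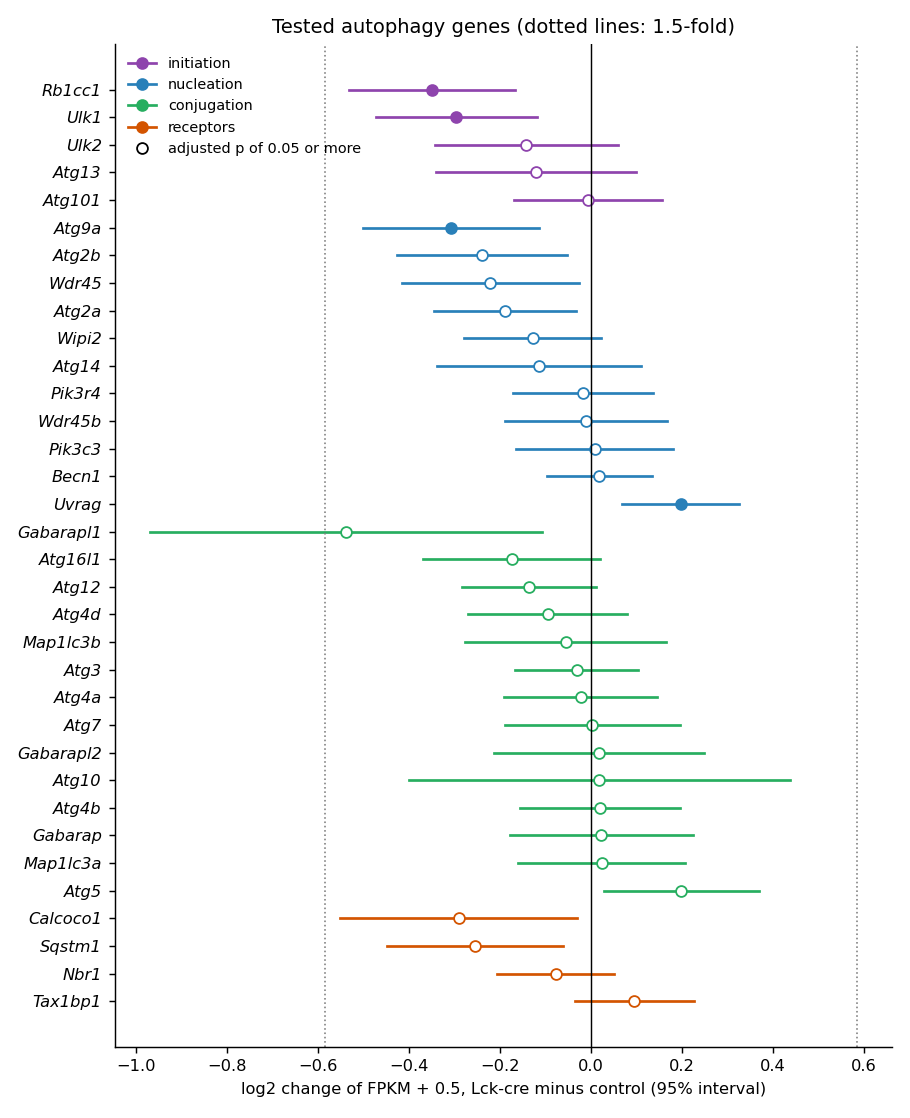
Log2 change (Lck-cre minus control) with its 95% interval for the 34 tested autophagy genes by step, with filled points for an adjusted p under 0.05. The 4 filled points are Rb1cc1, Ulk1, Atg9a and Uvrag, and the interval of Gabarapl1 alone crosses the dotted line at 1.5-fold.

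The 5 initiation genes encode the ULK complex. Rb1cc1, the scaffold also known as FIP200 (chromosome 1, 6276421 to 6346872, plus strand, ENSMUSG00000025907.15, in the files' coordinates, whose build is not named), lay at 14.0, 13.4, 13.1 and 12.4 FPKM in Lck-cre, against 16.2, 19.3, 15.7 and 16.9 FPKM in controls. Every Lck-cre sample was below every control, with a log2 change of -0.35 (SE 0.08, 95% interval -0.53 to -0.17, adjusted p = 0.0171 by limma). Ulk1, the kinase (chromosome 5, 110932354 to 110957963, minus strand, ENSMUSG00000029512.12), lay at 38.1, 39.1, 33.5 and 39.0 FPKM in Lck-cre, against 48.4, 46.7, 40.6 and 48.5 FPKM in controls. The groups again did not overlap, and the log2 change was -0.30 (SE 0.08, 95% interval -0.47 to -0.12, adjusted p = 0.0265 by limma). Of all tested genes 29.4% had groups that did not overlap, 17.1% with Lck-cre higher and 12.3% with Lck-cre lower, and of the members 8 of 34 did, 3 higher and 5 lower.

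The other initiation genes did not pass. The paralogous kinase Ulk2 lay at 9.81, 11.4, 10.5 and 8.87 FPKM in Lck-cre, against 10.9, 11.3, 12.2 and 10.6 FPKM in controls. These groups overlapped, and the log2 change was -0.14 (95% interval -0.34 to 0.06, adjusted p = 0.254 by limma). Atg13, the adaptor of the complex, averaged 24.3 ± 2.11 FPKM in Lck-cre and 26.6 ± 3.30 FPKM in controls. Its partner Atg101 averaged 40.2 ± 2.11 FPKM in Lck-cre and 40.4 ± 3.22 FPKM in controls (SD, n = 4 each), and the interval of its log2 change was -0.17 to 0.16. Thus 2 of the 5 initiation genes fell, beside 10.4% of all tested genes, and the median log2 change of the 5 was -0.14.

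Nucleation genes showed both directions. Atg9a, which moves lipids between membrane leaflets on the vesicles that seed the autophagosome (chromosome 1, 75157504 to 75168840, minus strand, ENSMUSG00000033124.17), lay at 17.5, 20.2, 16.1 and 15.98 FPKM in Lck-cre, against 23.8, 21.0, 21.2 and 20.5 FPKM in controls. The highest Lck-cre sample, replicate 6, was just below the lowest control, and the log2 change was -0.31 (SE 0.09, 95% interval -0.50 to -0.11, adjusted p = 0.0312 by limma). Atg9a overlaps Ankzf1 on the opposite strand, which averaged 14.2 FPKM with a log2 change of -0.25, and without stated strandedness reads of the overlap cannot be told apart. Uvrag, which joins Beclin 1 and the lipid kinase in the complex that acts at endosomes and late autophagosomes (chromosome 7, 98534228 to 98790348, minus strand, ENSMUSG00000035354.10), lay at 27.6, 24.3, 26.5 and 25.2 FPKM in Lck-cre, against 23.2, 22.3, 22.2 and 22.2 FPKM in controls. All 4 Lck-cre samples were above all 4 controls, and the log2 change was 0.20 (SE 0.06, 95% interval 0.07 to 0.32, adjusted p = 0.0338 by limma, and 0.140 with TPM).

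**Figure D3:**
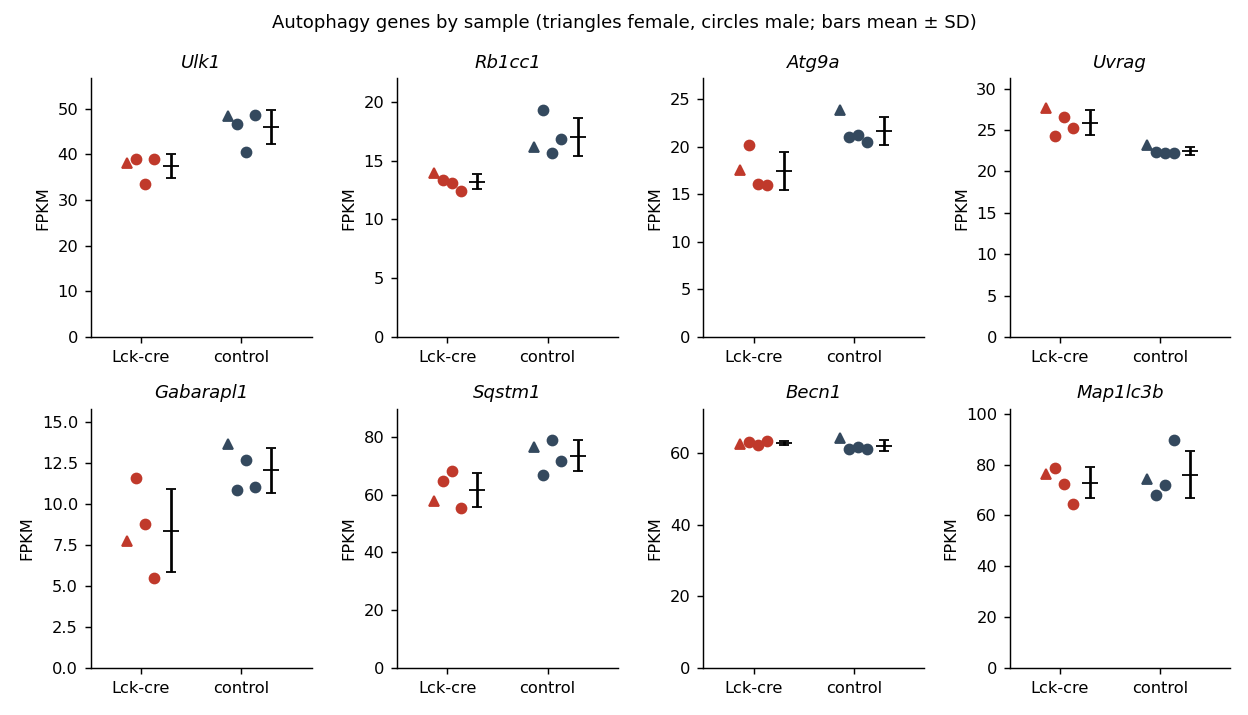
FPKM of 8 autophagy genes in each sample, Lck-cre left and control right, with the mean ± SD of 4 samples beside the points. Ulk1, Rb1cc1 and Atg9a are lower and Uvrag is higher in all Lck-cre samples, while the groups overlap for the other 4 genes.

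The core of the lipid kinase complex stayed close between groups. Becn1, or Beclin 1, lay at 62.6, 63.2, 62.3 and 63.4 FPKM in Lck-cre, against 64.3, 61.1, 61.8 and 61.1 FPKM in controls, and the interval of its log2 change was -0.10 to 0.13. Pik3c3, the kinase Vps34, averaged 15.3 ± 1.09 FPKM in Lck-cre and 15.2 ± 0.979 FPKM in controls, with an interval of -0.16 to 0.18. Pik3r4, its regulatory subunit, averaged 13.2 ± 0.8293 FPKM in Lck-cre and 13.4 ± 0.663 FPKM in controls, with an interval of -0.17 to 0.14 (SD, n = 4 each). Atg14, which directs the kinase to autophagosome formation, averaged 6.41 ± 0.751 FPKM in Lck-cre and 6.96 ± 0.610 FPKM in controls, and did not pass (adjusted p = 0.411 by limma). Becn1 overlaps Cntd1, which averaged 1.33 FPKM.

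Of the lipid transfer proteins and the phosphoinositide-binding WIPI family none passed in the fit reported here. Atg2b, a bridge-like lipid transporter, lay at 16.2, 15.4, 14.2 and 14.2 FPKM in Lck-cre, against 15.96, 19.3, 17.1 and 18.9 FPKM in controls. Its log2 change was -0.24 (SE 0.08, adjusted p = 0.0604 by limma), and Lck-cre replicate 5 lay above the lowest control. Its paralog Atg2a averaged 22.4 ± 1.78 FPKM in Lck-cre and 25.6 ± 0.852 FPKM in controls, with no overlap between groups and adjusted p = 0.0727 by limma. Among the WIPI family Wdr45 averaged 51.5 ± 3.96 FPKM in Lck-cre and 60.4 ± 8.22 FPKM in controls. Atg2b overlaps Gskip (7.10 FPKM) and Wdr45 overlaps Gm45208 (1.19 FPKM). Wdr45b averaged 25.6 ± 2.49 FPKM in Lck-cre and 25.8 ± 1.13 FPKM in controls, and Wipi2 averaged 29.1 ± 2.16 FPKM in Lck-cre and 31.8 ± 0.703 FPKM in controls (SD, n = 4 each). Of 11 tested nucleation genes 1 rose and 1 fell, and with TPM 0 rose and 4 fell by limma, the 4 being Atg9a, Atg2a, Atg2b and Wdr45. With FPKM, Atg2b passed after quantile normalization (0.0474) and with no sex term (0.0462). Wdr45 passed after quantile normalization (0.0462), and without Lck-cre replicate 6 both Wdr45 (0.0239) and Atg2a (0.0338) did.

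The calls of the 4 genes rested on few samples, though the direction of each held in all 18 alternatives. Without Lck-cre replicate 5 or without control replicate 1, the females of their groups, none of the 4 passed. In either fit the sex term takes up the remaining female. Both therefore compare the 3 males of each group, as males only does, and are not separate checks. In limma without Lck-cre replicate 5 and without control replicate 1, the adjusted p was 0.0506 and 0.0504 for Rb1cc1, 0.0974 and 0.0975 for Ulk1, 0.122 and 0.123 for Atg9a, and 0.123 and 0.123 for Uvrag. Rb1cc1 passed without each of the other 6 samples. The call of Ulk1 also ended without Lck-cre replicate 7 (0.0704) or control replicates 2 (0.0780) or 4 (0.0696). That of Atg9a ended without Lck-cre replicates 7 or 8 (0.0829 and 0.0727) or control replicates 2, 3 or 4 (0.0762, 0.0558 and 0.0558). That of Uvrag ended without the same samples, at 0.0936 and 0.0610 for the Lck-cre and 0.0821, 0.0564 and 0.0711 for the control replicates. All 4 passed without Lck-cre replicate 6, and with no filter on low values Uvrag alone did.

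RefSeq promoters (GRCm38.p6, 250 bases before to 50 after the start) were found for 30 of the 37 members, and not for Becn1, Rb1cc1, Atg16l1, Atg12, Map1lc3a, Pik3c3 and Wdr45b. The 30 members had 34 promoter windows. Motif shares of members and of tested genes are by gene, and those of all promoters by window. For the called genes the 250 bases before the start are shown, 5′ to 3′ on the minus strand for all 3, so that Ulk1 and Atg9a, which fell, can be set beside Uvrag, which rose. Capitals mark GC boxes (GGGCGG or its reverse complement CCGCCC).
Ulk1, chr5:110810082-110810331: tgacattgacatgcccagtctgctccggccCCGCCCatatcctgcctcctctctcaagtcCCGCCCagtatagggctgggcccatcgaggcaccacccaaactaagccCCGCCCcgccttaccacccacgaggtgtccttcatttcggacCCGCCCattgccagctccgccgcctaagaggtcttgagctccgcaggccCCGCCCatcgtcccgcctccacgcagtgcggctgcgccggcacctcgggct
Atg9a, chr1:75192011-75192260: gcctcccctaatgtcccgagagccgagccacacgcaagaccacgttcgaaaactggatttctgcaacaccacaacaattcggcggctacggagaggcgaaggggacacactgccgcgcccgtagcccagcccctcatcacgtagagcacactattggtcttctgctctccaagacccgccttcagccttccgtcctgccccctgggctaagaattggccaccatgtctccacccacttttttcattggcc
Uvrag, chr7:99141145-99141394: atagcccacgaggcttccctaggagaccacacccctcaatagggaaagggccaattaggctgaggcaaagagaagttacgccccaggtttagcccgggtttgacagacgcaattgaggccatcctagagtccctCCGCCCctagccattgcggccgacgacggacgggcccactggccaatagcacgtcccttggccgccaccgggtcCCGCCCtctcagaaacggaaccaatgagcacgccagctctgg
Ulk1 holds 5 GC boxes here, Atg9a 0 and Uvrag 2. In the windows with the 50 bases after the start, a GC box stood in 21 of the 30 members (70%), beside 69.8% of 8394 tested genes with a promoter and 35.7% of all 32851 promoters.

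Conjugation genes had the smallest median size of log2 change of the 4 steps, at 0.03. By limma 0 of 14 tested were called, with 2 at an unadjusted p under 0.05 (Atg5 and Gabarapl1), beside the 41.4% of all tested genes, and 2 fell with TPM (Atg12 and Gabarapl1). Atg7, the E1-like enzyme of both conjugation systems, averaged 8.01 ± 0.445 FPKM in Lck-cre and 8.02 ± 0.868 FPKM in controls, with a 95% interval of -0.19 to 0.20 (log2). Atg3, the E2-like enzyme for Atg8 proteins, averaged 26.6 ± 2.26 FPKM in Lck-cre and 27.1 ± 0.795 FPKM in controls. Atg10, the E2-like enzyme for Atg12, averaged 1.49 ± 0.360 FPKM in Lck-cre and 1.47 ± 0.449 FPKM in controls (SD, n = 4 each). None of these enzymes passed. Atg5, the acceptor of Atg12, averaged 11.5 ± 0.491 FPKM in Lck-cre and 9.95 ± 0.752 FPKM in controls without overlap (log2 change 0.20, adjusted p = 0.0800 by limma), and it passed without control replicate 3 (0.0461). Atg12 averaged 19.0 ± 1.21 FPKM in Lck-cre and 20.9 ± 0.797 FPKM in controls, also without overlap (adjusted p = 0.145 by limma). Atg16l1, which places the conjugate on the membrane, averaged 19.0 ± 1.43 FPKM in Lck-cre and 21.6 ± 1.96 FPKM in controls.

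The Atg4 proteases cut Atg8 precursors and release them from lipid. Atg4a averaged 7.86 ± 0.375 FPKM in Lck-cre and 7.99 ± 0.425 FPKM in controls. Atg4b averaged 20.4 ± 1.38 FPKM in Lck-cre and 20.1 ± 1.65 FPKM in controls, and Atg4d averaged 19.1 ± 1.83 FPKM in Lck-cre and 20.4 ± 0.633 FPKM in controls (SD, n = 4 each). The intervals of their log2 changes were -0.19 to 0.15 for Atg4a, -0.16 to 0.20 for Atg4b and -0.27 to 0.08 for Atg4d, so none passed. Atg4b overlaps Thap4, which averaged 9.94 FPKM and rose (log2 change 0.46), and Atg4d overlaps Kri1, which averaged 24.2 FPKM.

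Of the 5 Atg8 genes, Gabarapl1 had the largest change in size. Map1lc3b lay at 76.3, 78.6, 72.3 and 64.6 FPKM in Lck-cre, against 74.2, 68.2, 72.1 and 89.6 FPKM in controls, with a log2 change of -0.06 (95% interval -0.28 to 0.17). Gabarapl1 lay at 7.73, 11.6, 8.77 and 5.46 FPKM in Lck-cre, against 13.7, 10.8, 12.7 and 11.0 FPKM in controls. Lck-cre replicate 6 lay within the control range and the other 3 Lck-cre samples below it. The log2 change of -0.54 was the largest in size among the 34 members (SE 0.19, 95% interval -0.97 to -0.11), but did not pass (adjusted p = 0.0650 by limma). It passed with TPM (0.0398) and without Lck-cre replicate 6, where it was -0.72 (0.00882). Gabarap averaged 58.4 ± 3.96 FPKM in Lck-cre and 57.7 ± 6.30 FPKM in controls. Gabarapl2 averaged 43.4 ± 4.43 FPKM in Lck-cre and 42.9 ± 5.18 FPKM in controls, and Map1lc3a averaged 12.3 ± 1.18 FPKM in Lck-cre and 12.1 ± 0.854 FPKM in controls (SD, n = 4 each). The summed level of the 5 genes was 195 ± 12.6 FPKM in Lck-cre and 201 ± 13.3 FPKM in controls. Of this sum Map1lc3b made up 37.3 ± 1.57% in Lck-cre and 37.9 ± 4.21% in controls, and Gabarapl1 made up 4.24 ± 1.02% in Lck-cre and 6.004 ± 0.538% in controls.

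Cargo receptors bind ubiquitin or membranes at one end and Atg8 proteins at the other. By limma 0 of 4 tested were called, with 2 at an unadjusted p under 0.05 (Sqstm1 and Calcoco1), beside 41.4% of all tested genes, and both fell with TPM (adjusted p of 0.0178 and 0.0392). Sqstm1, or p62, lay at 57.8, 64.7, 68.4 and 55.5 FPKM in Lck-cre, against 76.6, 66.8, 78.8 and 71.7 FPKM in controls. Lck-cre replicate 7 exceeded the lowest control, and the log2 change was -0.25 (SE 0.09, 95% interval -0.45 to -0.06, adjusted p = 0.0564 by limma). Sqstm1 also passed after quantile normalization (0.0236), with median-of-ratios scaling (0.0345), with no sex term (0.0427) and without Lck-cre replicate 7 (0.0499). Sqstm1 overlaps Mrnip on the opposite strand, which averaged 3.24 FPKM and rose (log2 change 0.51, adjusted p = 0.0199 by limma). Calcoco1, a receptor for endoplasmic reticulum and Golgi, averaged 40.0 ± 5.99 FPKM in Lck-cre and 48.8 ± 5.39 FPKM in controls (adjusted p = 0.0900 by limma, and 0.0272 without Lck-cre replicate 6). Tax1bp1 lay at 80.9, 81.9, 91.2 and 82.9 FPKM in Lck-cre, against 76.4, 79.8, 80.7 and 78.0 FPKM in controls. Its groups did not overlap, by a narrow margin, and its log2 change was 0.10 (95% interval -0.03 to 0.23, adjusted p = 0.237 by limma). Nbr1, a partner of p62, averaged 42.7 ± 2.34 FPKM in Lck-cre and 45.1 ± 2.66 FPKM in controls.

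Ratios of genes within a sample hardly depend on the scaling between samples, and 8 pairs of paralogs or alternative subunits were compared. By the exact two-sided permutation test over all 70 assignments, whose smallest p is 0.0286, 0 of the 8 ratios passed after Benjamini-Hochberg adjustment, and 0 had an unadjusted p under 0.05. Even that smallest possible p cannot pass after adjustment over 8 ratios if a single ratio reaches it. The adjusted count therefore cannot show that a ratio was unchanged. The smallest p found belonged to 2 of the ratios. Atg14 over Uvrag, which sets the early against the late form of the lipid kinase complex, had log2 ratios of -1.95, -1.73, -1.94 and -2.14 in Lck-cre and -1.57, -1.74, -1.51 and -1.69 in controls. The difference was -0.31 (exact permutation p = 0.0571, adjusted p = 0.229), and Lck-cre replicate 6 was the sample within the control range. Gabarapl1 over Gabarapl2 had log2 ratios of -2.29, -1.91, -2.42 and -2.76 in Lck-cre and -1.65, -1.87, -1.92 and -1.71 in controls. Its difference was -0.56 (exact permutation p = 0.0571, adjusted p = 0.229), again with Lck-cre replicate 6 within the control range. The differences of the other 6 were -0.15 for Ulk1 over Ulk2, 0.05 for Atg2a over Atg2b, 0.14 for Wipi1 over Wipi2, -0.21 for Wdr45 over Wdr45b, 0.08 for Map1lc3a over Map1lc3b and -0.04 for Atg4a over Atg4b, with exact permutation p of 0.257 to 0.743. Wipi1 stayed below the 0.5 added to each FPKM in every sample, so its ratio to Wipi2 says little about Wipi1.

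**Figure D4:**
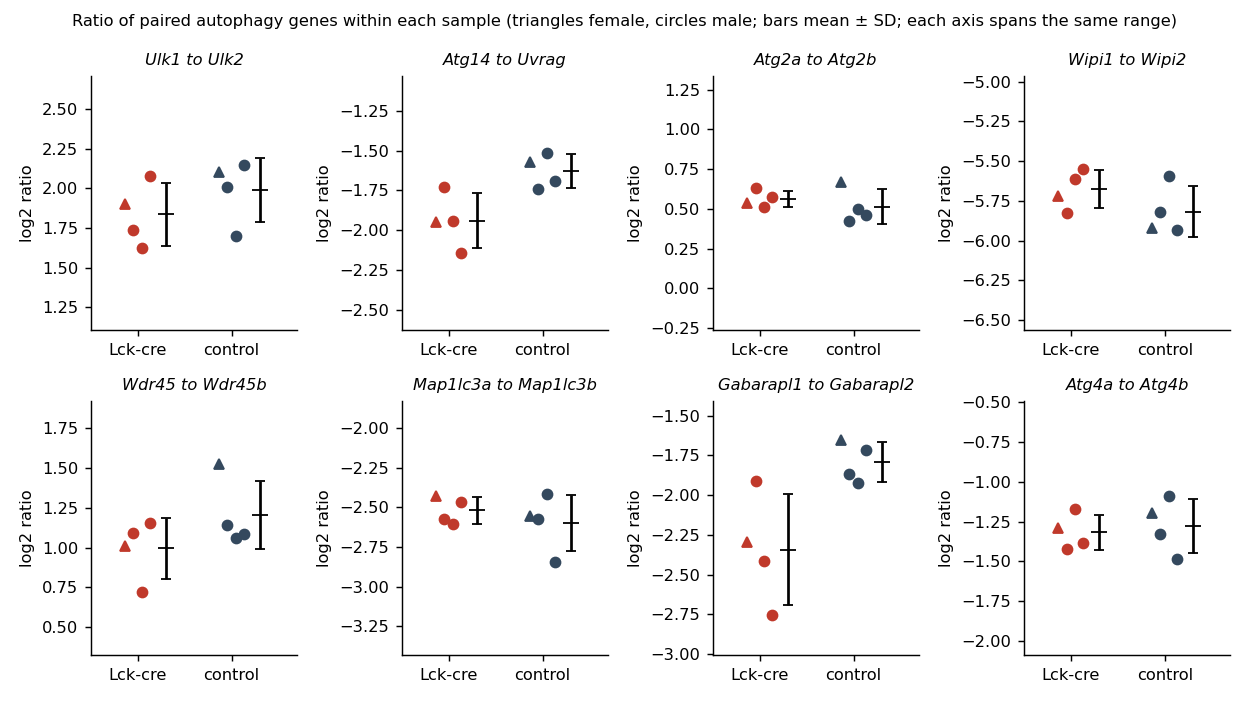
Log2 ratio of FPKM (+ 0.5) of paired autophagy genes in each sample, Lck-cre left and control right, with the mean ± SD of 4 samples. In Atg14 to Uvrag and in Gabarapl1 to Gabarapl2, 3 Lck-cre samples lie below the controls and 1 lies within their range.

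MiT transcription factors drive lysosomal and autophagy genes through the E-box CACGTG. Of 10 tested transcription factors of autophagy genes 2 rose and 1 fell, beside 15.4% and 10.4% of all tested genes. Tfeb lay at 5.68, 4.01, 4.61 and 8.03 FPKM in Lck-cre, against 2.05, 2.09, 2.37 and 2.24 FPKM in controls (log2 change 1.14, SE 0.18, adjusted p = 0.00765 by limma). Every Lck-cre sample exceeded every control. Tfe3, of the same family, averaged 8.02 ± 1.09 FPKM in Lck-cre and 5.75 ± 1.04 FPKM in controls (log2 change 0.45, adjusted p = 0.0342 by limma). Crtc2, a coactivator of CREB, averaged 58.2 ± 4.77 FPKM in Lck-cre and 70.8 ± 6.58 FPKM in controls (log2 change -0.28, adjusted p = 0.0314 by limma). The E-box stood in the promoter window of 4 of the 30 members with one (13.3%), beside 12.4% of tested genes with a promoter and 7.15% of all promoters. The stretch around it is shown for the 3 in which it lies before the start, 5′ to 3′ on the plus strand, with the E-box in capitals.
Atg3, chr16:45158708-45158767: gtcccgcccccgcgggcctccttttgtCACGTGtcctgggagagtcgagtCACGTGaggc
Atg5, chr10:44268298-44268338: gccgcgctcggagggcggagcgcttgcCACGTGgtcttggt
Atg7, chr6:114670937-114670996: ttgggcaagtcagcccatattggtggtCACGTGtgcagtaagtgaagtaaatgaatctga
Bases after the start were found in an annotated transcript of the gene for Atg7, as for Ulk1, Atg9a and Uvrag, but not for Atg3 and Atg5, whose starts rest on the RefSeq entry alone. Atg3 holds 2 copies, and in Atg14 the E-box spans the start. The log2 changes of these 4 genes were -0.03 for Atg3, 0.20 for Atg5, 0.00 for Atg7 and -0.11 for Atg14, and none was called. The forkhead motif TGTTTAC (or GTAAACA) stood in 0 of the 30 members and in 3.10% of tested genes with a promoter.

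Nutrient control of the ULK kinase runs through mTORC1, which inhibits it, and AMPK, which activates it. Of 16 tested genes of this control 1 rose and 2 fell, beside 15.4% and 10.4% of all tested genes. Rheb, the GTPase that activates mTORC1, averaged 28.4 ± 0.877 FPKM in Lck-cre and 24.1 ± 1.17 FPKM in controls (log2 change 0.23, adjusted p = 0.0233 by limma). Tsc1, a subunit of the complex that inactivates Rheb, averaged 8.57 ± 0.581 FPKM in Lck-cre and 10.2 ± 0.579 FPKM in controls (log2 change -0.23, adjusted p = 0.0470 by limma). The call of Tsc1 ended without any 1 of the 8 samples (adjusted p of 0.0701 to 0.134). Sesn3, an inhibitor of mTORC1, averaged 6.69 ± 0.721 FPKM in Lck-cre and 8.53 ± 0.764 FPKM in controls (log2 change -0.33, adjusted p = 0.0317 by limma). Groups were apart for Rheb and Tsc1 and overlapped for Sesn3.

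Regulators of Beclin 1 and of the early membrane gave 0 calls of 12 tested by limma, with 3 at an unadjusted p under 0.05, beside 41.4% of all tested genes. The smallest p was that of Vmp1, a scramblase of the endoplasmic reticulum, at 13.1 ± 1.66 FPKM in Lck-cre and 10.8 ± 0.959 FPKM in controls (adjusted p = 0.0740 by limma). Of 15 tested genes of autophagosome fusion 2 fell and 0 rose, beside 10.4% and 15.4% of all tested genes. Tecpr1, which binds the conjugate of Atg12 and Atg5, lay at 71.9, 83.4, 64.9 and 62.8 FPKM in Lck-cre, against 109, 106, 88.8 and 98.2 FPKM in controls (log2 change -0.51, SE 0.10, adjusted p = 0.0112 by limma). Plekhm1, an adaptor of Rab7 and Atg8 proteins, averaged 18.1 ± 1.40 FPKM in Lck-cre and 23.2 ± 1.28 FPKM in controls (log2 change -0.35, adjusted p = 0.0137 by limma). No Lck-cre sample reached the control range in either gene.

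Conjugation of LC3 to single membranes uses Atg16l1 together with the V-ATPase, or Tecpr1. Of 7 tested genes of that list 3 rose and 1 fell, the gene that fell being Tecpr1 again, beside 15.4% and 10.4% of all tested genes. The counts with TPM were 1 and 1, beside 10.5% and 16.8%. Atp6v1h, a regulatory subunit of the V-ATPase, averaged 23.7 ± 1.06 FPKM in Lck-cre and 18.9 ± 0.851 FPKM in controls (log2 change 0.32, adjusted p = 0.0115 by limma). Cyba, a subunit of the NADPH oxidase, averaged 117 ± 8.06 FPKM in Lck-cre and 95.9 ± 7.93 FPKM in controls (log2 change 0.29, adjusted p = 0.0322 by limma). The catalytic V-ATPase subunit Atp6v1a was the other that rose (log2 change 0.23). Among 15 tested receptors for mitochondria and endoplasmic reticulum 2 rose and 0 fell, beside 15.4% and 10.4% of all tested genes. Phb2, an inner mitochondrial membrane protein, averaged 101 ± 6.80 FPKM in Lck-cre and 81.8 ± 4.13 FPKM in controls (log2 change 0.30, adjusted p = 0.0140 by limma). Rtn3, a reticulon, averaged 145 ± 6.38 FPKM in Lck-cre and 124 ± 8.47 FPKM in controls (log2 change 0.22, adjusted p = 0.0365 by limma; SD, n = 4 each).

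**Figure D5:**
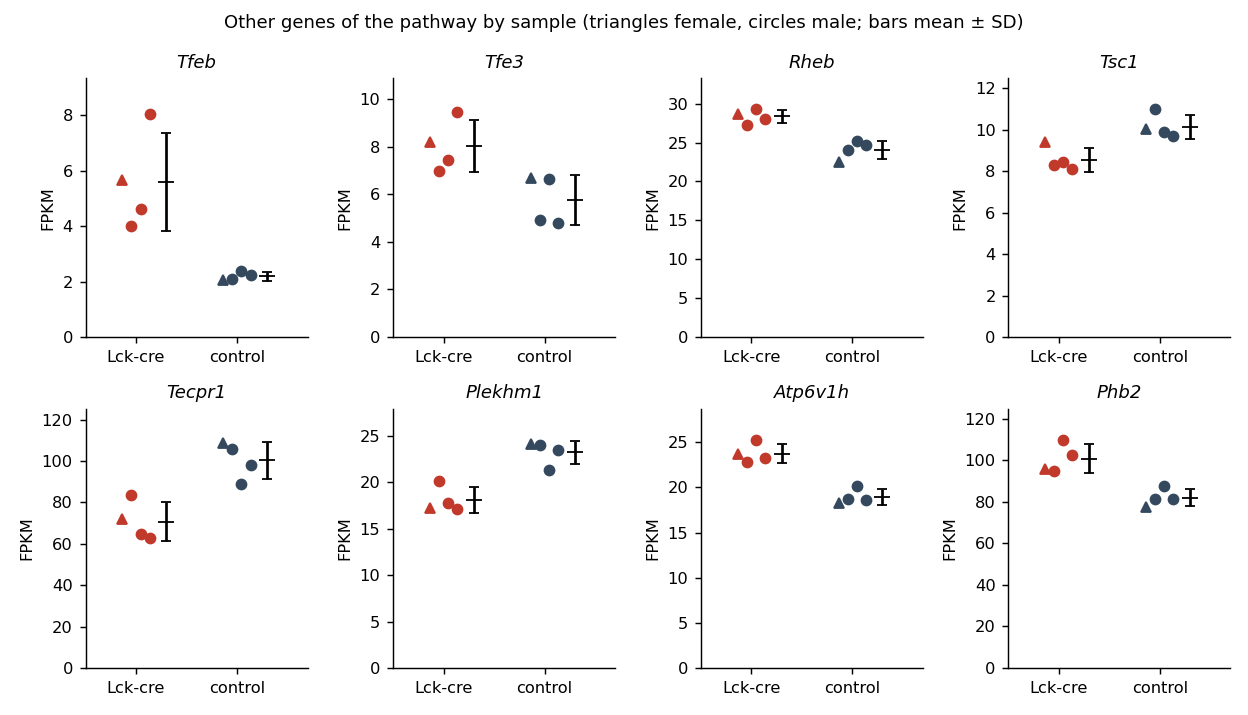
FPKM of 8 other genes of the pathway in each sample, Lck-cre left and control right, with the mean ± SD of 4 samples. Tfeb, Tfe3, Rheb, Atp6v1h and Phb2 are higher and Tsc1, Tecpr1 and Plekhm1 lower in all Lck-cre samples.

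Over these lists together 13 of 73 tested genes were called, 8 higher and 5 lower, a share of 17.8% beside the 25.8% of all tested genes. With TPM 4 rose and 15 fell, a share of 26.0% beside 27.3% of all tested genes, and the calls of Rheb, Rtn3, Atp6v1a and Cyba ended. Of the 13 calls, that of Tfeb held without each sample in turn (adjusted p of 0.00209 to 0.0429 by limma), and it was the 1 call left without Lck-cre replicate 5 or without control replicate 1. Both of these fits in effect compare males only. Of the 13, 12 were called without Lck-cre replicate 6, 5 without Lck-cre replicate 7 and 6 without Lck-cre replicate 8. Without control replicates 2, 3 and 4 the calls left were 5, 11 and 7.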

How the data were processed

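Per the labels, total RNA was extracted with the RNeasy Mini Kit, and the submitters' processing notes name HISAT and Bowtie2. Versions, genome build, annotation, quantifier and strandedness were not found in these sources. The authors deposited 1 table per sample with FPKM, TPM and coverage, per the file headers. The deposited TPM sum to 1000000 per sample, while the deposited FPKM sum to 437778 to 457145 in Lck-cre and 413835 to 437426 in controls. The deposited coverage signal, which was not tested, spanned 22.6 to 35.4 for Rb1cc1 and 173 to 225 for Ulk1 over the samples. The tables hold no counts, so no count test was run.

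Entries that share a gene ID were summed. The limma 3.58.1 fit (R 4.3.3) used log2(FPKM + 0.5) of genes that reached 1 FPKM in 4 samples or more. Its terms were genotype and sex, its moderation followed a mean trend, and its two-sided p-values were adjusted over all tested genes. Fold changes on this scale understate those of low genes. The fit was also run on simulated data in which a small set of genes was raised and none lowered. These data have calls in both directions, and no result here rests on the simulation. Ratios were compared by exact permutation in Python 3.11.15. Pairs of Lck-cre samples had Pearson correlations of 0.983 to 0.991, and pairs of controls 0.985 to 0.992. The 18 alternatives were 2 other scalings, TPM, 2 other pseudocounts (0.1 and 1), 2 other filters, a fit without sex, males only, a stricter threshold, and the 8 samples left out in turn.

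The members, lists and tests were chosen with earlier results of these data known, and the GC box search and the E-box windows after the promoters were read. Sample values are given for called members. Of each step they are also given for the member with the highest mean FPKM and the uncalled one with the smallest p. Other lists are represented by up to 2 called genes a direction, or by the smallest p where none was called. Atp6v1a is named beyond this rule, after its values were seen.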

Additional observations from a re-analysis of the deposited data

Results flagged for a closer look

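Uvrag in control replicate 1, at 23.2 FPKM, stood apart from the other controls, which lay between 22.2 and 22.3 FPKM. The gap was 0.859 of the group's range, above Dixon's limit for 4 samples. Of 68 groups of members and 16 groups of ratios examined this was the 1 found, while chance gives about 1 in 20. In a fit with an interaction of sex and genotype, limma called 0 of the 34 members, and 0 had an unadjusted p under 0.05, with 1 female in each group.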

How the results depend on the processing

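The direction of the 4 called members held in all 18 alternatives. The count of members that rose, 1 as reported, was 0 with quantile normalization, TPM, median-of-ratios scaling, males only or an adjusted p under 0.01, and 0 to 1 when each sample was left out. The count of members that fell, 3 as reported, was 6 with quantile normalization, 10 with TPM, 5 with no sex term, 0 with no filter, 0 with males only, 0 with an adjusted p under 0.01, and 0 to 7 when each sample was left out. The 7 came without Lck-cre replicate 6. Of all tested genes 3180 were called, with 1056 called under no filter, 652 with males only, 512 at an adjusted p under 0.01, and 647 to 3889 when each sample was left out. Males only compares 3 with 3 samples, as in effect do the fits without a female, where the sex term takes up the remaining female. The cause of the other shifts was not tested. By the exact permutation test 0 ratios of a pair passed after adjustment in any of the alternatives run, and 3 against 3 males cannot go below p = 0.1. With all samples, too, a single separated ratio could not pass after adjustment. No paired analysis was run because the labels name no pairs of samples across the groups.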

Other observations

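Of the 12 related genes under the minimum for testing, 9 were above 0 in a sample, and groups were apart for 4 of them, 3 higher and 1 lower in Lck-cre. Of all 16514 genes under the minimum and above 0 in a sample, groups were apart for 2.99% as higher and 3.49% as lower. The 4 are named after their values were seen. Atg9b, the paralog of Atg9a, averaged 1.03 ± 0.102 FPKM in Lck-cre and 0.662 ± 0.132 FPKM in controls. Mitf, of the same family as Tfeb, averaged 0.442 ± 0.117 FPKM in Lck-cre and 0.222 ± 0.0235 FPKM in controls. Prkaa2, a catalytic subunit of AMPK, averaged 0.0628 ± 0.0226 FPKM in Lck-cre and 0.0320 ± 0.00913 FPKM in controls, and the kinase Lrrk2 averaged 0.0194 ± 0.0130 FPKM in Lck-cre and 0.0425 ± 0.00368 FPKM in controls (SD, n = 4 each). Groups were also apart for 3 of the 6 myeloid or dendritic markers, all higher in Lck-cre and under 1 FPKM, and their part in these values was not tested.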
